A study of Mus musculus with 13 samples.

Results

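The T cell receptor beta and gamma segments are the V, D, J and constant (C) gene pieces from which T cells assemble the beta and gamma chains. Members were the genes of the table named Trbv, Trbd, Trbj, Trbc, Trgv, Trgj, Trgc or Tcrg whose biotype begins with TR_. Of 43629 genes in the table, 53 met both conditions, and all of these were beta segments. A further 15 gamma segments met the condition on the name only, since the table gives them the biotypes IG_LV_gene (7), IG_J_gene (4), IG_C_gene (3) and protein_coding (1). GENCODE vM21 lists all 68, and the 15 gamma segments are described here beside the 53 beta segments and counted apart.

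The study sequenced polyA RNA of thymic lymphomas, each from a different mouse, and of thymus. Atm-/- lymphomas (n = 5) came from mice of strain 129S6/SvEv that lack ATM, a kinase that responds to DNA breaks. Rag2c/c p53-/- lymphomas (n = 5) came from mice of a mixed background of C57BL/6 and 129S6/SvEv that lack p53 and carry a RAG2 protein shortened at its C terminus, the core RAG2. WT thymus (n = 3) came from wild type C57BL/6 mice and was taken over from an earlier series. The source name of these 3 samples reads as lymphoma while their tissue reads as thymus, and they are taken here as normal thymus, on which every comparison with them rests. RNA came from single-cell suspensions with no sort stated, so each library holds all cells of the suspension. Strain, tissue state and series go with the groups and cannot be told apart from genotype.

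In developing thymocytes, the RAG1 and RAG2 nuclease joins a D segment to a J segment and then a V segment to that pair, and the DNA between the joined ends is lost from the chromosome. The beta locus holds its V segments upstream of a pair of D-J-C clusters, with Trbv31 downstream and in inverted order. A join of an upstream V segment to the second cluster deletes the first cluster's J segments and Trbc1 from that allele. The gamma locus holds several V-J-C cassettes, each with its own constant gene, and gamma transcripts are also found in thymocytes that become alpha-beta T cells. In a thymus the many cells carry many different joins, while the cells of a clone share theirs.

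Values are normalized counts, gene read counts scaled by the authors with 1 size factor for each library and then rounded. Column totals lay between 19788898 in WT thymus 1 and 21591289 in WT thymus 2. In 6 libraries low values skipped whole numbers, which gave the worth of 1 read and so the depth. It was estimated at 6.68 M reads in WT thymus 2, and 9.23, 13.5 and 11.2 M reads in Atm-/- lymphomas 2, 3 and 4. It was 6.37 and 13.7 M reads in Rag2c/c p53-/- lymphomas 2 and 4. In the other 7 libraries 1 read was worth 1 or less, so the depth was the column total or more. Values at or under 3 are called near 0, and 1 read was worth up to 3.38 in Rag2c/c p53-/- lymphoma 2, the library with the fewest reads.

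The genes altered in the mice still had transcripts in the lymphomas. Atm stood at 1990, 1559 and 2274 in WT thymuses 1 to 3, at 732, 208, 445, 568 and 534 in Atm-/- lymphomas 1 to 5, and at 1248, 439, 1315, 552 and 1154 in Rag2c/c p53-/- lymphomas 1 to 5. Every Atm-/- lymphoma lay below every WT thymus, and none was at 0. Rag2 stood at 4199, 5409 and 4502 in WT thymuses 1 to 3, at 279, 1025, 265, 521 and 46 in Atm-/- lymphomas 1 to 5, and at 790, 260, 537, 410 and 695 in Rag2c/c p53-/- lymphomas 1 to 5. Both lymphoma groups lay below WT thymus, the group without a Rag2 allele change included. Trp53 stood at 4387, 6341 and 4498 in WT thymuses 1 to 3, at 6853, 11318, 9340, 10202 and 6955 in Atm-/- lymphomas 1 to 5, and at 2616, 5461, 2018, 3863 and 3884 in Rag2c/c p53-/- lymphomas 1 to 5. The Rag2c/c p53-/- values overlapped those of WT thymus, while every Atm-/- lymphoma lay above every WT thymus. Values are per whole gene, so a missing or disrupted exon was not looked at, and the genotypes rest on the labels.

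The libraries were checked against T cell genes. The sum over Cd3e, Cd3g, Cd3d, Lck, Cd5 and Thy1 was 64069, 101962 and 63601 in WT thymuses 1 to 3, 52994, 94779, 76387, 78180 and 58278 in Atm-/- lymphomas 1 to 5, and 63763, 105152, 51402, 70145 and 54800 in Rag2c/c p53-/- lymphomas 1 to 5. All 6 genes were well above 0 in all 13 libraries, and the lymphoma sums overlapped those of WT thymus. Summed over the libraries Thy1 was the most abundant of the 6, though Lck exceeded it in WT thymuses 1 and 3.

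Of the 68 segments, 53 passed the filter, a value of 10 or more in 3 or more libraries, 42 of the beta and 11 of the gamma locus. The beta segments span chr6:40891229-41558452 (GRCm38) and comprise 22 V genes, 13 V pseudogenes, 2 D, 13 J genes, 1 J pseudogene and 2 C genes. The gamma segments span chr13:19178042-19352343 and comprise 7 V, 4 J and 4 C genes. Of the V pseudogenes 2 reached that level, Trbv6 and Trbv24, and 4 were at 0 in all 13 libraries. Together the 68 segments held 0.229% to 0.283% of the column total in WT thymus, 0.0987% to 0.304% in Atm-/- lymphomas and 0.0829% to 0.202% in Rag2c/c p53-/- lymphomas.

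The Trbv segments code for the part of the beta chain that meets antigen. Their summed value was 19658, 20066 and 18743 in WT thymuses 1 to 3, 3973, 5858, 10560, 11125 and 4504 in Atm-/- lymphomas 1 to 5, and 6205, 5590, 5088, 6915 and 4928 in Rag2c/c p53-/- lymphomas 1 to 5. All 10 lymphomas lay below all 3 WT thymuses. The Trbc1 and Trbc2 total did not part the groups in this way, at 9605 to 46004 in the lymphomas and 21051 to 35188 in WT thymus. In bulk libraries fewer cells with a segment and less RNA per cell cannot be told apart. The authors also removed duplicate reads, and the part of that step in the Trbv totals and shares was not tested.

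In WT thymus the Trbv total was spread over many segments. Trbv13-2 had the highest value in each library, with 1944, 2267 and 1873, or 9.89%, 11.3% and 9.99% of the Trbv total in WT thymuses 1 to 3. Trbv13-1 came next, with 7.85%, 7.87% and 7.90%, and was equalled by Trbv16 in WT thymus 3. Between 23 and 25 of the 35 Trbv segments had a value over 10, and 0 held 20% or more. The effective number of segments, the inverse of the sum of squared shares, was 15.8, 15.3 and 15.7. The 3 WT thymuses thus lay close together in every one of these measures.

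In Atm-/- lymphomas 1 or 2 segments held most of the Trbv total, and the leading segment differed in each of the 5. Trbv13-1 led in Atm-/- lymphoma 1 with 3588, or 90.3%, and Trbv3 led in Atm-/- lymphoma 2 with 4378, or 74.7%, followed by Trbv17 with 12.9%. Atm-/- lymphoma 3 had Trbv1 at 6300 (59.7%) and Trbv12-2 at 3894 (36.9%), and Atm-/- lymphoma 4 had Trbv19 at 7912 (71.1%) and Trbv2 at 1888 (17.0%). Atm-/- lymphoma 5 had Trbv13-2 at 2096 (46.5%) and Trbv13-1 at 1938 (43.0%). The effective number was 1.22, 1.72, 2.03, 1.86 and 2.45 in Atm-/- lymphomas 1 to 5, each below the lowest WT thymus. Between 25 and 30 of the 35 segments were near 0.

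In Rag2c/c p53-/- lymphomas the Trbv total was held by few segments as well. Trbv2 led in Rag2c/c p53-/- lymphoma 1 with 5851, or 94.3%, and Trbv19 led in Rag2c/c p53-/- lymphoma 2 with 5502, or 98.4%. Rag2c/c p53-/- lymphoma 3 had Trbv13-2 at 2866 (56.3%) and Trbv26 at 1290 (25.4%), and Rag2c/c p53-/- lymphoma 4 had Trbv2 at 3710 (53.7%) and Trbv3 at 3077 (44.5%). Rag2c/c p53-/- lymphoma 5 had Trbv24, annotated as a V pseudogene, at 3412 (69.2%), followed by Trbv19 at 763 (15.5%) and Trbv29 at 381. The effective number was 1.12, 1.03, 2.54, 2.06 and 1.96 in Rag2c/c p53-/- lymphomas 1 to 5, again each below the lowest WT thymus. Over both groups, 6 lymphomas had 1 segment at 20% or more and 4 had 2.

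These shares are of normalized counts, in which a longer segment draws more reads. On the scale of values per kilobase of exon, an alternative chosen after seeing the data, the leading Trbv segment was unchanged in 12 of 13 libraries. In Rag2c/c p53-/- lymphoma 4 it became Trbv3 with 49.4%. The leading Trbv segment shared no 90-base stretch with another gene in GENCODE vM21 in any of the libraries, nor did 38 of the 48 members that are long enough for such a stretch. The search was for identical stretches, so copies with a mismatch were not looked for. Intervals for these shares are not given, since the rounding hides the whole reads.

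**Figure D1:**
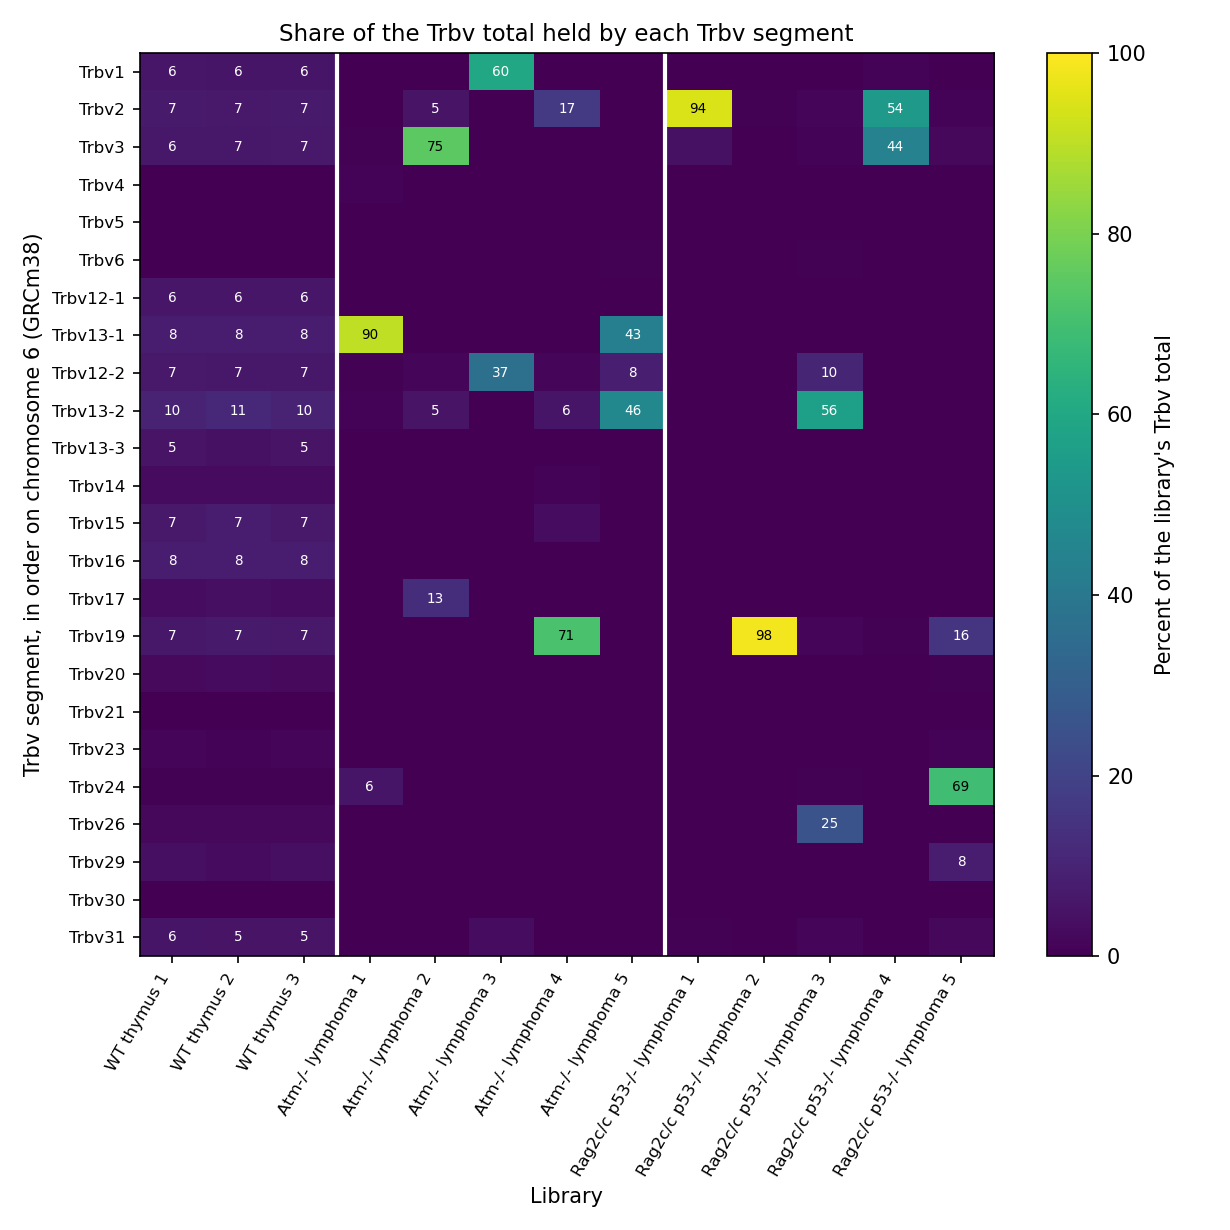
Share of each library's Trbv total (percent, colour) held by each of the 24 Trbv segments that passed the filter, in order on chromosome 6, with 1 column per library and shares of 5% or more printed. The 3 WT thymuses spread over many segments, while 1 or 2 segments hold 81.7% to 98.9% in each of the 10 lymphomas.

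Values were also summed on each side of the leading Trbv segment, Trbv31 apart, and the mean of the same segments in WT thymus is given beside each sum. The downstream sums were 310, 1152, 3920, 4 and 7 in Atm-/- lymphomas 1 to 5, where the WT thymus means were 11844, 14619, 17265, 2016 and 8530. They were 311, 17, 1448, 3126 and 393 in Rag2c/c p53-/- lymphomas 1 to 5, where the WT thymus means were 15893, 2016, 8530, 15893 and 1174. The upstream sums were 73, 317, 3205 and 2398 in Atm-/- lymphomas 1, 2, 4 and 5, where the WT thymus means were 5030, 2516, 15061 and 7851, and no segment lies upstream of Trbv1, which led in Atm-/- lymphoma 3. They were 15, 54, 694, 63 and 1026 in Rag2c/c p53-/- lymphomas 1 to 5, where the WT thymus means were 1143, 15061, 7851, 1143 and 17141. Sums on both sides of the leading segment lay below the WT thymus mean. Downstream of the most downstream segment at 5% or more, where each segment is under 5% by the choice of that point, the sums were 1, 4, 9, 4 and 7 in Atm-/- lymphomas 1 to 5 and 311, 17, 23, 49 and 5 in Rag2c/c p53-/- lymphomas 1 to 5. Trbv31, which joins by inversion, stood at 1137, 1095 and 1009 in WT thymuses 1 to 3, at 2, 11, 340, 4 and 3 in Atm-/- lymphomas 1 to 5, and at 28, 17, 80, 16 and 97 in Rag2c/c p53-/- lymphomas 1 to 5. Only Atm-/- lymphoma 3 among the 10 exceeded 100, and all 10 lay below WT thymus.

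Genes that are not receptor segments lie within the beta locus and within 250 kb of it, 40 in all, of which 6 passed the filter. Prss2, a trypsinogen gene between the V segments and Trbd1, stood at 114, 75 and 83 in WT thymuses 1 to 3, at 1, 14, 0, 0 and 1 in Atm-/- lymphomas 1 to 5, and at 2, 635, 129, 31 and 149 in Rag2c/c p53-/- lymphomas 1 to 5. The Atm-/- lymphomas all lay below WT thymus, and the Rag2c/c p53-/- lymphomas lay on both sides of it. 2210010C04Rik, another trypsinogen-like gene, lies between Trbv1 and Trbv2. It stood at 10, 16 and 9 in WT thymuses 1 to 3, at 1, 5, 2, 15 and 12 in Atm-/- lymphomas 1 to 5, and at 106, 1523, 53, 18 and 132 in Rag2c/c p53-/- lymphomas 1 to 5, where each value exceeded every WT thymus value. Mgam, which codes for a gut enzyme that splits starch, lies upstream of Trbv1. It stood at 102, 65 and 118 in WT thymuses 1 to 3, at 0, 0, 251, 0 and 0 in Atm-/- lymphomas 1 to 5, and at 1, 3, 3, 7 and 1 in Rag2c/c p53-/- lymphomas 1 to 5. The lymphoma at 251 is Atm-/- lymphoma 3, the library that Trbv1 led.

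**Figure D2:**
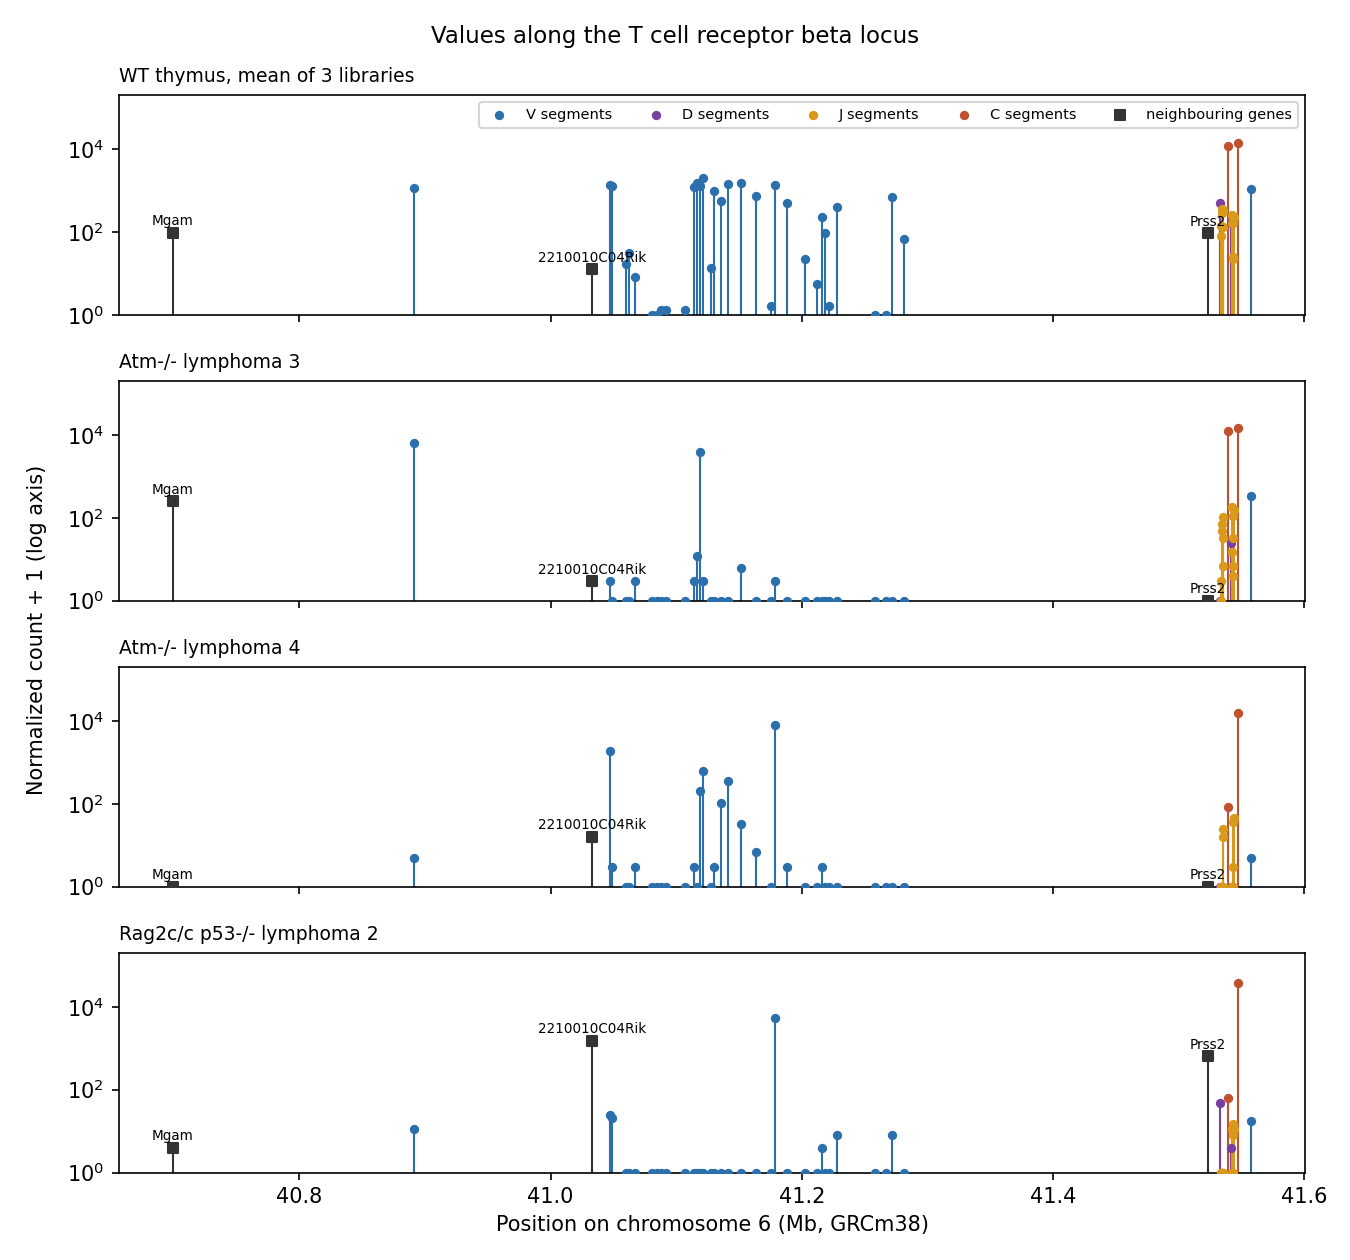
Normalized count + 1 (log axis) of each V, D, J and C segment and of 3 neighbouring genes by position on chromosome 6 (Mb), as the mean of the 3 WT thymuses and in 3 lymphomas picked after their values were seen. WT thymus has values over 1000 at many V segments, while the highest V segments of the 3 lymphomas are Trbv1 at 6300, Trbv19 at 7912 and Trbv19 at 5502.

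Each Trbv segment that led in a library or held 20% or more of a Trbv total is shown by its last 45 bases, which adds Trbv12-2 and Trbv26 to the 7 that led, because a V segment's end codes for the conserved cysteine before the join and a pseudogene among them invites a look at its reading frame. The search was for TGTGCCAG on the strand of the segment within those 45 bases, and capitals mark it. Of the 35 V segments of the beta locus, 19 hold it there, 13 of the 22 V genes and 6 of the 13 V pseudogenes, and of the 9 shown 8 hold it. A match is a description only. Sequences are those of GENCODE vM21 transcripts (GRCm38, plus strand) at chr6:40891841-40891885 for Trbv1, chr6:41047951-41047995 for Trbv2, chr6:41048784-41048828 for Trbv3, chr6:41116424-41116468 for Trbv13-1, chr6:41119320-41119364 for Trbv12-2, chr6:41121788-41121832 for Trbv13-2, chr6:41179004-41179048 for Trbv19, chr6:41218513-41218557 for Trbv24 and chr6:41227949-41227993 for Trbv26.
Trbv1: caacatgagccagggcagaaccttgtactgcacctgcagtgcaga
Trbv2: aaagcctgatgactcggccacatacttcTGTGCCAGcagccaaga
Trbv3: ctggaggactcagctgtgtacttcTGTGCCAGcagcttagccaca
Trbv13-1: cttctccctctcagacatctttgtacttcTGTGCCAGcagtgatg
Trbv12-2: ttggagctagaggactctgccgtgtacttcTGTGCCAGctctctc
Trbv13-2: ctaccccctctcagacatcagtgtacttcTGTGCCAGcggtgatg
Trbv19: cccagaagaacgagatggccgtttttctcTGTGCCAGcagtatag
Trbv24: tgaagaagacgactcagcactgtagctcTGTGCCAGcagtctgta
Trbv26: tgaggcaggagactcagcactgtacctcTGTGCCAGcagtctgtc
In the frame of the motif's first codon, 1 stop codon (TAG) precedes it in Trbv24 and 0 precede it in the 13 V genes that hold the motif. Rag2c/c p53-/- lymphoma 5, which Trbv24 led, also had Trbv19 at 763 and Trbv29 at 381, and whether its cells make a beta chain from another allele was not analysed here.

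The D segments are the short middle pieces of the beta chain join. Trbd1 opens the first cluster and stood at 453, 559 and 475 in WT thymuses 1 to 3, at 74, 11, 0, 0 and 20 in Atm-/- lymphomas 1 to 5, and at 39, 47, 211, 224 and 145 in Rag2c/c p53-/- lymphomas 1 to 5. All lymphomas lay below WT thymus, and 4 of 5 Atm-/- lymphomas lay below every Rag2c/c p53-/- lymphoma. Trbd2 opens the second cluster and stood at 165, 169 and 140 in WT thymuses 1 to 3, at 85, 55, 23, 0 and 352 in Atm-/- lymphomas 1 to 5, and at 43, 3, 0, 71 and 13 in Rag2c/c p53-/- lymphomas 1 to 5. Atm-/- lymphoma 5 exceeded WT thymus, and the other 9 lymphomas lay below it. Their sequences (GENCODE vM21, GRCm38, plus strand, chr6:41533201-41533212 and chr6:41542163-41542176) are shown whole because a D segment is far shorter than a read, so reads assigned to it run into its flanks or into a join, and no part is in capitals.
Trbd1: gggacagggggc
Trbd2: gggactgggggggc
Which of these the reads were cannot be told from values per gene.

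The Trbj segments close the join and are spliced to the constant gene. The Trbj1 segments of the first cluster summed to 1741, 1406 and 1790 in WT thymuses 1 to 3, to 96, 346, 257, 38 and 156 in Atm-/- lymphomas 1 to 5, and to 19, 0, 1, 277 and 46 in Rag2c/c p53-/- lymphomas 1 to 5. The Trbj2 segments of the second cluster summed to 1168, 951 and 1126 in WT thymuses 1 to 3, to 221, 746, 496, 83 and 335 in Atm-/- lymphomas 1 to 5, and to 43, 41, 511, 205 and 100 in Rag2c/c p53-/- lymphomas 1 to 5. Both sums were lower in all 10 lymphomas than in WT thymus. Trbj1 held 59.7% to 61.4% of the Trbj total in WT thymus, 30.3% to 34.1% in Atm-/- lymphomas and 0% to 57.5% in Rag2c/c p53-/- lymphomas, where lymphoma 4 was the highest.

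The leading Trbj segment was Trbj1-3 in WT thymuses 1 and 3 and Trbj1-6 in WT thymus 2, at 12.5% to 14.6% of the Trbj total. In Atm-/- lymphomas 1 to 5 it was Trbj2-3 at 85, Trbj2-1 at 496, Trbj2-1 at 177, Trbj2-7 at 45 and Trbj1-6 at 111. In Rag2c/c p53-/- lymphomas 1 to 5 it was Trbj2-6 at 28, Trbj2-6 at 14, Trbj2-2 at 142, Trbj1-6 at 82 and Trbj2-6 at 42. A segment of the second cluster thus led in 8 of 10 lymphomas and in 0 of 3 WT thymuses. Trbj2-6, annotated as a pseudogene, led in 3 of these. The segments are shorter than a read and these values are low, so the leader of a library can rest on few reads.

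The constant segments carry the beta chain's membrane part. Trbc1 (ENSMUSG00000076490, chr6:41538218-41539881) stood at 9559, 15801 and 9713 in WT thymuses 1 to 3, at 1639, 25684, 12536, 81 and 7567 in Atm-/- lymphomas 1 to 5, and at 5118, 61, 17, 8484 and 1634 in Rag2c/c p53-/- lymphomas 1 to 5. Trbc2 (ENSMUSG00000076498, chr6:41546730-41548352) stood at 11492, 19387 and 11385 in WT thymuses 1 to 3, at 8574, 20320, 14898, 15557 and 8725 in Atm-/- lymphomas 1 to 5, and at 4487, 37090, 10642, 13398 and 11526 in Rag2c/c p53-/- lymphomas 1 to 5. Trbc2 overlapped between all 3 groups, while Trbc1 was far lower in Atm-/- lymphoma 4 and in Rag2c/c p53-/- lymphomas 2 and 3 than in any other library. Trbc1 held 45.4%, 44.9% and 46.0% of the Trbc1 and Trbc2 total in WT thymuses 1 to 3, 16.0%, 55.8%, 45.7%, 0.518% and 46.4% in Atm-/- lymphomas 1 to 5, and 53.3%, 0.164%, 0.159%, 38.8% and 12.4% in Rag2c/c p53-/- lymphomas 1 to 5. On the scale of values per kilobase of exon the Trbc1 share was 43.0% to 44.1% in WT thymus, 0.479% to 53.9% in Atm-/- lymphomas and 0.147% to 51.3% in Rag2c/c p53-/- lymphomas. The lymphomas whose share was under 1% were also those with the lowest Trbj1 sums next to Rag2c/c p53-/- lymphoma 1, with 38, 0 and 1, and that lymphoma had a Trbj1 sum of 19 beside a Trbc1 share of 53.3%.

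The 2 constant exons are near copies, which matters because the authors kept uniquely mapped reads. Exon 1 of each has 375 bases, and the exons differ at 1 base. The stretch of 41 bases around it is shown for both (GENCODE vM21, GRCm38, plus strand, chr6:41538457-41538497 for Trbc1 and chr6:41546969-41547009 for Trbc2), with that base in capitals.
Trbc1: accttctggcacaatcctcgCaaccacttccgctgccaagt
Trbc2: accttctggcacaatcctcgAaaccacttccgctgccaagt
Of the 90-base stretches of Trbc1, 31.3% occur in Trbc2, and 33.7% of those of Trbc2 occur in Trbc1. A single read within such a stretch matches both genes, though its mate in the pair may lie outside. Where in each transcript the counted reads fell was not analysed here.

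**Figure D3:**
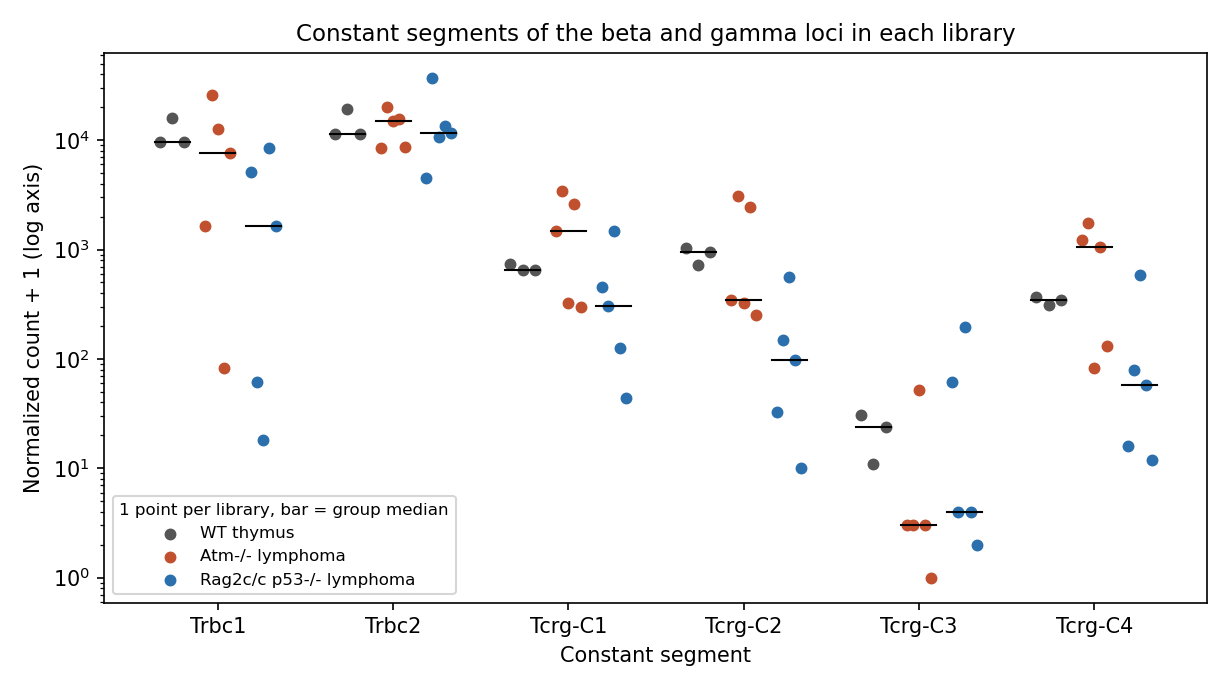
Normalized count + 1 (log axis) of the beta constant segments Trbc1 and Trbc2 and the gamma constant segments Tcrg-C1 to Tcrg-C4, with 1 point per library, coloured by group, and a bar at each group median. Trbc1 ranges from 17 to 25684 over the lymphomas while Trbc2 ranges from 4487 to 37090, and the gamma constants of both lymphoma groups range more widely than those of WT thymus.

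In the gamma locus the V segments of WT thymus summed to 1016, 957 and 883, and Trgv2 led with 550, 533 and 467, or 54.1%, 55.7% and 52.9%. Tcrg-V4 came second with 302, 273 and 276. The gamma V total was 2079, 2683, 534, 3554 and 389 in Atm-/- lymphomas 1 to 5, and 491, 121, 1178, 132 and 33 in Rag2c/c p53-/- lymphomas 1 to 5. Atm-/- lymphomas 1, 2 and 4 exceeded WT thymus, while lymphomas 3 and 5 lay below it, and of the Rag2c/c p53-/- lymphomas only lymphoma 3 exceeded it.

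Tcrg-V4, of the cassette with Tcrg-C1, led in 9 of 10 lymphomas. It stood at 1138, 1334, 247, 1664 and 235 in Atm-/- lymphomas 1 to 5, or 54.7%, 49.7%, 46.3%, 46.8% and 60.4% of the gamma V total. It stood at 388, 64, 528, 50 and 15 in Rag2c/c p53-/- lymphomas 1 to 5, with 79.0%, 52.9%, 44.8% and 45.5% in lymphomas 1, 2, 3 and 5. In Rag2c/c p53-/- lymphoma 4 Trgv2 led with 60, or 45.5%. The leading share in WT thymus was that of another segment, so the shares of the groups do not describe the same gene. Tcrg-V3 stood at 20, 6 and 11 in WT thymuses 1 to 3 and exceeded this in 3 lymphomas, at 57 in Atm-/- lymphoma 3 and at 70 and 325 in Rag2c/c p53-/- lymphomas 1 and 3. In the same 3 lymphomas Tcrg-C3, of the cassette of Tcrg-V3, stood at 51, 60 and 194, against 30, 10 and 23 in WT thymus and 3 or less in the other 7. On the scale of values per kilobase of exon the leading gamma V segment was unchanged in all 13 libraries.

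The gamma constant segments summed to 2169, 1699 and 1974 in WT thymuses 1 to 3, to 3030, 8289, 781, 6118 and 677 in Atm-/- lymphomas 1 to 5, and to 563, 531, 2799, 282 and 64 in Rag2c/c p53-/- lymphomas 1 to 5. The same libraries lay above and below WT thymus as for the V segments. Tcrg-C1 stood at 734, 656 and 646 in WT thymuses 1 to 3, at 1472, 3453, 326, 2600 and 299 in Atm-/- lymphomas 1 to 5, and at 456, 301, 1463, 125 and 43 in Rag2c/c p53-/- lymphomas 1 to 5. Tcrg-C2 stood at 1041, 721 and 957 in WT thymuses 1 to 3, at 342, 3076, 323, 2469 and 249 in Atm-/- lymphomas 1 to 5, and at 32, 149, 562, 97 and 9 in Rag2c/c p53-/- lymphomas 1 to 5. All Rag2c/c p53-/- values of Tcrg-C2 lay below WT thymus. Tcrg-C4 stood at 364, 312 and 348 in WT thymuses 1 to 3, at 1214, 1758, 81, 1047 and 129 in Atm-/- lymphomas 1 to 5, and at 15, 78, 580, 57 and 11 in Rag2c/c p53-/- lymphomas 1 to 5. Atm-/- lymphomas 3 and 5 lay below WT thymus for Tcrg-C1, Tcrg-C2 and Tcrg-C4, and lymphoma 1 did so for Tcrg-C2. The gamma constants held 4.61% to 9.34% of all beta and gamma constant values in WT thymus, 2.77% to 28.1% in Atm-/- lymphomas and 0.484% to 20.8% in Rag2c/c p53-/- lymphomas.

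The first comparison asks how the segments of ATM-deficient lymphomas differ from those of thymus. limma was fitted to log2(value + 1) of all 15872 genes that passed the filter. A call needed an adjusted p (Benjamini-Hochberg) under 0.05, a log2 fold change of 1 or more in size, and 10 or more as the mean of either group. Between Atm-/- lymphomas and WT thymus 4687 genes were called (29.5%), of which 1992 were higher (12.6%) and 2695 lower (17.0%) in Atm-/- lymphomas. Of the 53 segments tested, 28 (52.8%) were called lower and 0 higher, and at an unadjusted p under 0.05 limma gave 31 lower and 0 higher. The calls fell on 28 of 42 beta segments and 0 of 11 gamma segments, of which 1 was lower and 0 higher at an unadjusted p under 0.05. By role, 17 of 24 Trbv and 10 of 14 Trbj segments were called lower. The median log2 fold change of the 53 was -3.91, against -0.02 over all genes tested. A segment that passed the filter through the WT thymuses alone had to differ, so these counts describe the segments and support nothing further.

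Among the called Trbv segments, Trbv13-3 stood at 1019, 936 and 997 in WT thymuses 1 to 3 and at 0, 0, 0, 2 and 0 in Atm-/- lymphomas 1 to 5. Trbv29 stood at 770, 598 and 757 in WT thymuses 1 to 3 and is listed at 0 in all 5 Atm-/- lymphomas. Trbv12-1 stood at 1187, 1221 and 1149 in WT thymuses 1 to 3 and at 3, 0, 2, 2 and 3 in Atm-/- lymphomas 1 to 5. All 3 were near 0 in 5 of 5 Atm-/- lymphomas, with log2 fold changes of -9.63 (adjusted p = 1.35e-07) for Trbv13-3 and -8.78 (adjusted p = 1.16e-07) for Trbv12-1 and an adjusted p of 1.62e-05 for Trbv29. Trbv13-3 and Trbv12-1 passed the filter through the 3 WT thymuses alone and could not be fitted without any 1 of them, and the number called lower was 19 without WT thymus 1, 2 or 3. Fitted fold changes of segments at or near 0 depend on the added 1 and are no bound. Trbv13-1, which led in Atm-/- lymphoma 1, and Trbv13-2, which led in Atm-/- lymphoma 5, were not called, while Trbv1, Trbv3 and Trbv19 were called lower although each led in 1 of the 5 lymphomas. The Atm-/- mean was above that of WT thymus for Trbv1 (1262 against 1143) and Trbv19 (1585 against 1332). It was below for Trbv3 (883.4 against 1274). The calls on Trbv1 and Trbv19 as lower thus hold on the log scale only. The group difference thus hides values above WT thymus in single lymphomas, as for Trbv19 at 7912 in Atm-/- lymphoma 4 beside 5, 0, 2 and 4 in the others. Trbc1 had a log2 fold change of -1.84 (adjusted p = 0.480) and Trbc2 of -0.08 (adjusted p = 0.905), and neither was called. The sign for Trbc2 turned without WT thymus 2 (0.17), without Atm-/- lymphoma 1 (0.06) and without Atm-/- lymphoma 5 (0.06).

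The second comparison asks the same of lymphomas with the core RAG2 and no p53, and it shares the WT thymuses with the first. Between Rag2c/c p53-/- lymphomas and WT thymus 3750 genes were called (23.6%), of which 1551 were higher (9.77%) and 2199 lower (13.9%) in the lymphomas. Of the 53 segments, 35 (66.0%) were called lower and 0 higher, and at an unadjusted p under 0.05 limma gave 39 lower and 0 higher. The calls fell on 31 of 42 beta and 4 of 11 gamma segments. By role, 19 of 24 Trbv and 12 of 14 Trbj segments were called lower. The median log2 fold change of the 53 was -4.08, against -0.02 over all genes tested. Without WT thymus 1, 2 or 3 in turn, the number called lower was 22 each time. Only 2 WT thymuses then remain, and segments that passed the filter through the WT thymuses alone were no longer fitted. Such segments had to differ, so these counts and the median describe the segments and support nothing further.

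Among the called segments, Trbv12-1 is listed at 0 in all 5 Rag2c/c p53-/- lymphomas (adjusted p = 1.18e-07). It passed the filter through the WT thymuses alone, so it had to differ and the p supports nothing further. Trbv15 stood at 1357, 1498 and 1307 in WT thymuses 1 to 3 and at 2, 0, 0, 0 and 0 in Rag2c/c p53-/- lymphomas 1 to 5, with a log2 fold change of -10.12 (adjusted p = 2.92e-04). Trbv13-1 stood at 1543, 1579 and 1481 in WT thymuses 1 to 3 and at 0, 0, 5, 0 and 0 in Rag2c/c p53-/- lymphomas 1 to 5, with a log2 fold change of -10.07 (adjusted p = 0.00349). Each of the 3 was lower than WT thymus in 5 of 5 lymphomas. In the gamma locus Trgv2, Tcrg-C2, Trgj1 and Trgj2 were called lower, though Trgj2 stood at 0, 0, 86, 0 and 0 in Rag2c/c p53-/- lymphomas 1 to 5 against 42, 26 and 46 in WT thymuses 1 to 3, so that lymphoma 3 was above WT thymus. Trgv2 stood at 28, 47, 105, 60 and 2 in Rag2c/c p53-/- lymphomas 1 to 5, with a log2 fold change of -4.08 (adjusted p = 0.00779), lower than WT thymus in 5 of 5. Tcrg-C2 had a log2 fold change of -3.54 (adjusted p = 0.0252), and its call was lost without WT thymus 1 (-3.43), 2 (-3.70) or 3 (-3.49). Trbc1 was lower in 5 of 5 lymphomas than in any WT thymus, but its log2 fold change of -4.24 was not called (adjusted p = 0.117). Trbc2 had a log2 fold change of -0.16 (adjusted p = 0.828), which turned without WT thymus 2 (0.10) and without Rag2c/c p53-/- lymphoma 1 (0.20).

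The third comparison sets the lymphoma groups against each other, so that the difference is not taken against thymus, though the WT thymuses enter the filter and the variance estimate, and strain still goes with genotype. Between Atm-/- and Rag2c/c p53-/- lymphomas 1244 genes were called (7.84%), of which 557 were higher (3.51%) and 687 lower (4.33%) in Atm-/- lymphomas. Of the 53 segments, 5 (9.43%) were called, 3 higher and 2 lower, a share near that of all genes tested. At an unadjusted p under 0.05, 11 segments were higher and 5 lower, of which 6 of the higher and 0 of the lower were gamma segments. The median log2 fold change was 1.24 over the 53, 0.93 over the 42 beta segments and 2.36 over the 11 gamma segments, against 0.02 over all genes tested.

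Trgv2 stood at 302, 1151, 208, 1468 and 109 in Atm-/- lymphomas 1 to 5 and was above 105, the highest Rag2c/c p53-/- value, in 5 of 5, with a log2 fold change of 3.75 (adjusted p = 0.0164). Trbv29, listed at 0 in all 5 Atm-/- lymphomas, stood at 5, 7, 16, 15 and 381 in Rag2c/c p53-/- lymphomas 1 to 5 (adjusted p = 0.00544). These calls of Trgv2 and Trbv29 held under every alternative run. The other 3 did not. Tcrg-C2 had a log2 fold change of 3.25 (adjusted p = 0.0464), with groups that overlapped, and its call was lost without Atm-/- lymphoma 1 (3.52), 2 (2.73) or 4 (2.81) and without Rag2c/c p53-/- lymphoma 1 (2.94), 4 (3.33) or 5 (2.51), and also without the filter and with only the compared groups in the fit. Trbv12-2 stood at 18, 87, 3894, 203 and 370 in Atm-/- lymphomas 1 to 5 and at 2, 0, 522, 0 and 0 in Rag2c/c p53-/- lymphomas 1 to 5, with a log2 fold change of 5.65 (adjusted p = 0.0434). Its call was lost without Atm-/- lymphoma 2 (5.97), 3 (4.61), 4 (5.67) or 5 (5.45) and without Rag2c/c p53-/- lymphoma 1 (5.51), 2 (5.11), 4 (5.11) or 5 (5.11), and with all libraries kept without the filter, with a pseudocount of 5 (4.08) and with only the compared groups in the fit. Trbd1 had a log2 fold change of -3.89 (adjusted p = 0.0305), and its call was lost without Atm-/- lymphoma 3 (-3.18) or 4 (-3.18) and without Rag2c/c p53-/- lymphoma 3 (-3.64), 4 (-3.61) or 5 (-3.77), and also with only the compared groups in the fit. The number called higher was 1 without the filter, 1 with only the compared groups in the fit, 1 without Atm-/- lymphoma 2, 6 without Atm-/- lymphoma 3 and 8 without Rag2c/c p53-/- lymphoma 3, and the number called lower was 4 without Atm-/- lymphoma 3 and 1 without Rag2c/c p53-/- lymphoma 3, 4 or 5. Trbc1 and Trbc2 were not called, and the log2 fold change of Trbc2, 0.07 (adjusted p = 0.941), turned without Atm-/- lymphoma 2 (-0.09) and without Rag2c/c p53-/- lymphoma 1 (-0.29).

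Of the neighbours in the beta locus, Prss2 was called lower in Atm-/- lymphomas than in WT thymus (log2 fold change -5.31, adjusted p = 0.00656, lower in 5 of 5) and than in Rag2c/c p53-/- lymphomas (-4.85, adjusted p = 0.0177). 2210010C04Rik was called lower in Atm-/- than in Rag2c/c p53-/- lymphomas (-4.30, adjusted p = 0.0114), with groups that did not overlap. Against WT thymus it was called higher in Rag2c/c p53-/- lymphomas (3.25, adjusted p = 0.0336), a call that was lost without WT thymus 1 (3.17), 2 (3.48) or 3 (3.10) and without Rag2c/c p53-/- lymphoma 5 (3.21), and also with only the compared groups in the fit. Mgam was called lower than WT thymus in Atm-/- lymphomas (-4.95, adjusted p = 0.0167, lower in 4 of 5), a call lost without WT thymus 1 (-4.87) or 3 (-4.77), and in Rag2c/c p53-/- lymphomas (-4.74, adjusted p = 0.0243, lower in 5 of 5), a call lost without WT thymus 1 (-4.67), 2 (-4.99) or 3 (-4.57). The value of 2210010C04Rik in Rag2c/c p53-/- lymphoma 2, 1523, was the highest of the 13 libraries, and so was that of Prss2 there, 635.

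The beta chain reaches the cell surface with the CD3 chains and with the alpha chain or its stand-in, the pre-T alpha chain coded by Ptcra. Of a list of 7 genes of this complex, 6 were tested, and Trdc, the delta constant gene, was not analysed here. limma called 0 of the 6 in each comparison, where 29.5%, 23.6% and 7.84% of all genes tested were called. At an unadjusted p under 0.05, against WT thymus 2 were lower in Atm-/- lymphomas and 2 in Rag2c/c p53-/- lymphomas, 1 was lower in Atm-/- than in Rag2c/c p53-/- lymphomas, and 0 were higher. Their median log2 fold changes were -0.44, -0.50 and 0.07, against -0.02, -0.02 and 0.02 over all genes tested. Without Atm-/- lymphoma 3, 1 was called lower in Atm-/- lymphomas against either other group, and without Rag2c/c p53-/- lymphoma 2, 1 was called lower in Rag2c/c p53-/- lymphomas against WT thymus. Cd3e, the most abundant, stood at 9728, 15778 and 9222 in WT thymuses 1 to 3, at 7309, 15675, 11122, 12133 and 7671 in Atm-/- lymphomas 1 to 5, and at 9801, 18552, 7957, 10779 and 7520 in Rag2c/c p53-/- lymphomas 1 to 5, and the 3 groups overlapped. Ptcra stood at 1107, 1420 and 1153 in WT thymuses 1 to 3, at 1134, 8050, 143, 5456 and 243 in Atm-/- lymphomas 1 to 5, and at 259, 878, 947, 3120 and 531 in Rag2c/c p53-/- lymphomas 1 to 5. Among the Atm-/- lymphomas Ptcra was below WT thymus in 3 and 5 and above it in 2 and 4. Trac, the alpha constant gene, stood at 4310, 8017 and 4344 in WT thymuses 1 to 3, at 1294, 2567, 5614, 483 and 2124 in Atm-/- lymphomas 1 to 5, and at 8042, 8507, 4393, 2753 and 3119 in Rag2c/c p53-/- lymphomas 1 to 5. Of the Atm-/- lymphomas, 3 had the highest and 4 the lowest Trac value. Ptcra and Trac are named here after their values were seen.

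Of 12 genes for the cutting and joining of V(D)J recombination, 6 were called lower and 1 higher in Atm-/- lymphomas than in WT thymus, and 4 lower and 1 higher in Rag2c/c p53-/- lymphomas. Of all genes tested 29.5% and 23.6% were called. The median log2 fold changes of the 12 were -0.83 and -0.64, against -0.02 and -0.02 over all genes tested. Rag1, which codes for the nuclease's catalytic subunit and was the most abundant of the list summed over the libraries, stood at 48182, 70834 and 51074 in WT thymuses 1 to 3, at 6304, 5755, 5496, 7116 and 2383 in Atm-/- lymphomas 1 to 5, and at 11239, 5620, 23493, 8465 and 18170 in Rag2c/c p53-/- lymphomas 1 to 5. Xrcc6 exceeded it in all 5 Atm-/- lymphomas and in Rag2c/c p53-/- lymphomas 1, 2 and 4. Rag1 was lower in 10 of 10 lymphomas, with log2 fold changes of -3.46 (adjusted p = 5.17e-05) and -2.24 (adjusted p = 0.00147). Rag2 was called lower as well, with -4.04 (adjusted p = 6.24e-04) and -3.22 (adjusted p = 0.00360). In Atm-/- lymphomas the call on Atm was at -2.06 (adjusted p = 0.00170) and that on Dclre1c, the hairpin-opening nuclease Artemis, at -1.82 (adjusted p = 0.00340). Prkdc, the DNA-dependent kinase, was called in both, at -1.35 (adjusted p = 1.82e-04) and -1.21 (adjusted p = 5.79e-04), and Dntt, which adds bases at the joins, was called in Atm-/- lymphomas at -1.07 (adjusted p = 0.00837). The remaining call in Rag2c/c p53-/- lymphomas was on Atm, at -1.16 (adjusted p = 0.0441), and it was lost without WT thymus 1 (-1.14), 2 (-1.31) or 3 (-1.04) and without Rag2c/c p53-/- lymphoma 2 (-0.92) or 4 (-1.01). The gene called higher in both was Xrcc6, which codes for Ku70, with 1.30 (adjusted p = 1.64e-04) and 1.16 (adjusted p = 5.20e-04). Between the lymphoma groups limma called 0 of the 12, with 1 higher and 3 lower at an unadjusted p under 0.05. The share called over all genes tested was 7.84% there. Of the 12, 2 were called lower without Rag2c/c p53-/- lymphoma 2.

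Of 12 genes that carry the signal from the receptor, against WT thymus 4 were called lower in Atm-/- lymphomas and 5 in Rag2c/c p53-/- lymphomas, and 0 higher by limma, and at an unadjusted p under 0.05 the numbers were 9 and 8 lower and 0 higher. Of all genes tested 29.5% and 23.6% were called. The median log2 fold changes of the 12 were -0.92 and -0.85, against -0.02 and -0.02 over all genes tested. Lck, the kinase that starts the signal and the most abundant of the list summed over the libraries, overlapped between all groups, from 15165 in Atm-/- lymphoma 1 to 30142 in Rag2c/c p53-/- lymphoma 2, with Ptprc above it in all 3 WT thymuses and in Atm-/- lymphomas 1 and 5, and Lat above it in Atm-/- lymphoma 2. Cd28, a costimulatory receptor, stood at 7712, 8238 and 8010 in WT thymuses 1 to 3, at 3137, 3256, 687, 2446 and 1173 in Atm-/- lymphomas 1 to 5, and at 2981, 1378, 2670, 1506 and 1327 in Rag2c/c p53-/- lymphomas 1 to 5. It was lower in 10 of 10 lymphomas, with log2 fold changes of -2.13 (adjusted p = 0.00232) and -2.11 (adjusted p = 0.00323). Cd5, whose product damps the signal, was called at -2.39 (adjusted p = 0.0173) and -2.60 (adjusted p = 0.0135), and the call in Atm-/- lymphomas was lost without WT thymus 1 (-2.43), 2 (-2.33) or 3 (-2.41). Other calls were on Themis (-1.28, adjusted p = 9.02e-04) in Atm-/- lymphomas, and on Ptprc (-1.50, adjusted p = 7.00e-04), Themis (-1.30, adjusted p = 0.00111) and Lcp2 (-1.10, adjusted p = 7.16e-04) in Rag2c/c p53-/- lymphomas. Of the 12, limma called 0 between the lymphoma groups, with 1 higher and 0 lower at an unadjusted p under 0.05. Over all genes tested the share called there was 7.84%.

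Of 12 regulators known to act at the beta or gamma locus, limma called 1 in Atm-/- lymphomas against WT thymus and 0 in Rag2c/c p53-/- lymphomas against WT thymus, where 1 was higher and 3 lower at an unadjusted p under 0.05. Both counts are below the shares called over all genes tested, 29.5% and 23.6%. The gene called was Bcl11b, a factor of T cell identity, at -1.20 (adjusted p = 1.08e-04). Between the lymphoma groups Il7r, the receptor chain whose signal opens the gamma locus, was called higher in Atm-/- lymphomas at 2.52 (adjusted p = 0.0114). It stood at 2206, 1819 and 2398 in WT thymuses 1 to 3, at 7078, 3387, 2860, 6581 and 5901 in Atm-/- lymphomas 1 to 5, and at 1967, 426, 1512, 188 and 1790 in Rag2c/c p53-/- lymphomas 1 to 5. For Il7r every Atm-/- lymphoma lay above WT thymus and above every Rag2c/c p53-/- lymphoma. Trgv2 had this order between the lymphoma groups only. Against 550, 533 and 467 in WT thymuses 1 to 3, Trgv2 was lower in Atm-/- lymphomas 1, 3 and 5, at 302, 208 and 109. It was higher in lymphomas 2 and 4, at 1151 and 1468. No relation between Il7r and the gamma segments was tested. Tcf7 was the most abundant of the list and overlapped between the groups, from 37415 to 70396.

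Genes that mark stages of thymocytes were looked at as a list of 8. Against WT thymus limma called 4 lower in Atm-/- lymphomas and 2 lower in Rag2c/c p53-/- lymphomas, and 0 higher, and at an unadjusted p under 0.05 the numbers were 5 and 3 lower and 0 higher. Over all genes tested the shares called were 29.5% and 23.6%. Il2ra, high in early thymocytes, stood at 3662, 3375 and 3597 in WT thymuses 1 to 3, at 4204, 17248, 50, 9640 and 93 in Atm-/- lymphomas 1 to 5, and at 234, 138, 1023, 521 and 19 in Rag2c/c p53-/- lymphomas 1 to 5. Atm-/- lymphomas 2 and 4 were the highest of the 13 libraries for Il2ra, as they were for the gamma V and gamma constant totals and for Ptcra. Il2ra is named here after its values were seen. Cd8a, a co-receptor of later stages and the most abundant of the list summed over the libraries, stood at 21284, 32183 and 21332 in WT thymuses 1 to 3, at 6145, 20872, 9366, 7257 and 5674 in Atm-/- lymphomas 1 to 5, and at 14721, 23709, 16319, 16564 and 16374 in Rag2c/c p53-/- lymphomas 1 to 5, and its call was at -1.49 (adjusted p = 0.00372) in Atm-/- lymphomas. Ccr7, a homing receptor of mature thymocytes, was called lower in both groups against WT thymus, at -3.64 (adjusted p = 2.97e-05) and -4.39 (adjusted p = 1.30e-05), and was lower in 10 of 10 lymphomas. Cd8b1 was called in Atm-/- lymphomas at -1.66 (adjusted p = 0.00487).

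Further calls on stage markers depended on single libraries or on the settings. Kit, a receptor of early progenitors, was called lower in Atm-/- lymphomas than in WT thymus at -3.27 (adjusted p = 0.0491), which was lost without WT thymus 1 (-3.22), 2 (-3.38) or 3 (-3.22) and without Atm-/- lymphoma 2 (-2.67), 3 (-2.86) or 4 (-2.73), and with all libraries kept without the filter, with a pseudocount of 5 (-3.04) and with only the compared groups in the fit. It was called lower in Atm-/- than in Rag2c/c p53-/- lymphomas at -3.65 (adjusted p = 0.0457), which was lost without Atm-/- lymphoma 2 (-3.05), 3 (-3.24) or 4 (-3.11) and without Rag2c/c p53-/- lymphoma 1 (-3.39), 2 (-3.52), 4 (-3.75) or 5 (-3.41), and also without the filter and with only the compared groups in the fit. Cd8b1 was called lower in Atm-/- than in Rag2c/c p53-/- lymphomas at -1.21 (adjusted p = 0.0388), which was lost without Atm-/- lymphoma 1 (-1.07), 4 (-1.03) or 5 (-1.18) and without Rag2c/c p53-/- lymphoma 2 (-0.98), 3 (-1.25), 4 (-1.21) or 5 (-1.23), and also with only the compared groups in the fit.

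Markers of other cells were read as whole lists, since such cells may carry gamma segments or dilute the T cells. Of 12 genes seen in gamma-delta T cells, 11 were in the table and 8 were tested, and their sum was 12224, 14343 and 12434 in WT thymuses 1 to 3, 10237, 18906, 7249, 9470 and 11622 in Atm-/- lymphomas 1 to 5, and 15529, 16697, 17564, 8111 and 13576 in Rag2c/c p53-/- lymphomas 1 to 5. Il17a was at or near 0 in 13 of 13 libraries, and Trdv4 in 12, with 4 in WT thymus 3. Against WT thymus 1 was called higher and 1 lower in Atm-/- lymphomas, and 2 higher in Rag2c/c p53-/- lymphomas. Of all genes tested 29.5% and 23.6% were called. Cd163l1 stood at 235, 185 and 249 in WT thymuses 1 to 3, at 1820, 7890, 920, 432 and 3002 in Atm-/- lymphomas 1 to 5, and at 1634, 2330, 4338, 613 and 4089 in Rag2c/c p53-/- lymphomas 1 to 5. It was higher in 10 of 10 lymphomas, at 2.99 (adjusted p = 0.00806) and 3.25 (adjusted p = 0.00625). Maf was called higher in Rag2c/c p53-/- lymphomas at 1.26 (adjusted p = 0.0436), a call lost without WT thymus 1 (1.23), 2 (1.29) or 3 (1.26) and without Rag2c/c p53-/- lymphoma 1 (1.09), 2 (about 1) or 4 (1.21), and also with only the compared groups in the fit. Between the lymphoma groups limma called 0 of the 8, with 0 higher and 2 lower at an unadjusted p under 0.05. The share called over all genes tested was 7.84% there. Of the 8, 1 was called lower without Atm-/- lymphoma 2. Without Atm-/- lymphoma 3, 2 were called higher in Atm-/- lymphomas against WT thymus. The part of such cells in the gamma values was not tested.

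The other marker lists had 6 genes each, and of all genes tested 29.5% were called for Atm-/- lymphomas and 23.6% for Rag2c/c p53-/- lymphomas. B cell markers summed to 1912, 1498 and 1809 in WT thymuses 1 to 3, to 318, 345, 330, 274 and 299 in Atm-/- lymphomas 1 to 5, and to 338, 557, 213, 166 and 260 in Rag2c/c p53-/- lymphomas 1 to 5, with 4 and 5 called lower, among them Ms4a1, Cd79b and Cd79a in both groups and Pax5 in the second, and Cd79b the most abundant summed over the libraries. The call on Pax5 (-3.41, adjusted p = 0.0175) was lost without WT thymus 1 (-3.50), 2 (-3.40) or 3 (-3.33). NK cell markers summed to 1099, 901 and 1072 in WT thymuses 1 to 3, to 523, 731, 326, 658 and 406 in Atm-/- lymphomas 1 to 5, and to 332, 334, 303, 502 and 358 in Rag2c/c p53-/- lymphomas 1 to 5, with Gzmb, Klrd1, Ncr1 and Klrb1c called lower in each group and Tyrobp, also a myeloid gene, the most abundant. Without WT thymus 1, 2 or 3 the NK cell calls numbered 2 in each group, since Klrd1 and Ncr1 then no longer passed the filter. Klrd1 and Ncr1 had passed it through the WT thymuses alone, so they had to differ and their calls support nothing further. Both lists were lower in all lymphomas, and Ms4a1 of B cells was at 0 in Atm-/- lymphoma 4 and Pax5 at 0 in Rag2c/c p53-/- lymphoma 4. Thymic epithelium markers summed to 1058, 725 and 1049 in WT thymuses 1 to 3, to 230, 189, 389, 609 and 452 in Atm-/- lymphomas 1 to 5, and to 287, 1320, 904, 508 and 1029 in Rag2c/c p53-/- lymphomas 1 to 5, with Psmb11, Foxn1 and Krt8 called lower in both and Krt5 in the second. The call on Krt8 in Atm-/- lymphomas (-2.12, adjusted p = 0.0387) was lost without WT thymus 1 (about -2), 2 (-2.35) or 3 (-2.01) and without Atm-/- lymphoma 1 (-1.83), 2 (-1.58) or 3 (-2.19), and also with only the compared groups in the fit. The call on Krt5 (-2.78, adjusted p = 0.0280) was lost without WT thymus 1 (-2.46) or 3 (-2.61) and without Rag2c/c p53-/- lymphoma 2 (-2.32). Epcam was the most abundant summed over the libraries, though Ccl25 exceeded it in WT thymuses 2 and 3, in all 5 Atm-/- lymphomas and in Rag2c/c p53-/- lymphomas 1 and 4. Epcam stood at 283, 221 and 251 in WT thymuses 1 to 3. Rag2c/c p53-/- lymphomas 2, 3 and 5 exceeded this, at 875, 540 and 750. Rag2c/c p53-/- lymphomas 1 and 4 lay below it, at 22 and 172, as did all 5 Atm-/- lymphomas. Epcam and Ccl25 were not called in either group against WT thymus. The defining markers Foxn1 and Psmb11 were at 7 or less in all lymphomas, Psmb11 at 0 in 9 of 10. Without WT thymus 1, 2 or 3 these defining markers no longer passed the filter, and the calls on this list numbered 0 in Atm-/- lymphomas each time and 1, 2 and 1 in Rag2c/c p53-/- lymphomas. Foxn1 and Psmb11 passed the filter through the WT thymuses alone, so they had to differ and their calls support nothing further.

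Myeloid markers summed to 3930, 3597 and 3969 in WT thymuses 1 to 3, to 9239, 7125, 8904, 11715 and 9881 in Atm-/- lymphomas 1 to 5, and to 5685, 4404, 6050, 8858 and 7261 in Rag2c/c p53-/- lymphomas 1 to 5, with Cd14 and Cd68 called higher in both, Lyz2 and Itgam in Atm-/- lymphomas, and Lyz2 the most abundant. The call on Itgam (1.20, adjusted p = 0.0305) was lost without WT thymus 1 (1.14), 2 (1.21) or 3 (1.26) and without Atm-/- lymphoma 1 (1.14), 2 (1.16), 3 (1.12) or 5 (1.03). Fibroblast and endothelium markers summed to 3846, 3775 and 3709 in WT thymuses 1 to 3, to 10910, 7802, 11378, 20727 and 14970 in Atm-/- lymphomas 1 to 5, and to 4751, 5809, 6512, 2944 and 5579 in Rag2c/c p53-/- lymphomas 1 to 5. Pecam1, which other blood cells also express, was the most abundant of these summed over the libraries. Col1a2, Col1a1 and Col3a1 were called higher in both groups and Sparc in Atm-/- lymphomas, and Cdh5 was called lower in Rag2c/c p53-/- lymphomas. The call on Col1a1 in Rag2c/c p53-/- lymphomas (2.74, adjusted p = 0.0133) was lost without WT thymus 1 (2.62) and that on Cdh5 (-2.93, adjusted p = 0.0183) without WT thymus 1 (-2.76) or 3 (-2.85). The myeloid sums were higher in all lymphomas than in WT thymus, and the fibroblast sums in all but Rag2c/c p53-/- lymphoma 4. Between the lymphoma groups Col1a2 was called higher in Atm-/- lymphomas at 3.63 (adjusted p = 8.33e-06), and Klrb1c at 2.02 (adjusted p = 0.0262), a call lost without Atm-/- lymphoma 1 (1.87), 2 (1.72) or 4 (1.93) and without Rag2c/c p53-/- lymphoma 4 (1.90), and also with only the compared groups in the fit. Of the B cell, thymic epithelium and myeloid lists limma called 0 there, with 0, 4 and 2 genes at an unadjusted p under 0.05. The share called over all genes tested was 7.84% in that comparison. On leaving out 1 library there, 1 B cell marker was called higher without Rag2c/c p53-/- lymphoma 2, 1 thymic epithelium marker was called higher without Atm-/- lymphoma 2 and 1 lower without Atm-/- lymphoma 3 or Rag2c/c p53-/- lymphoma 1, and 2 fibroblast and endothelium markers were called higher without Atm-/- lymphoma 3 or Rag2c/c p53-/- lymphoma 3. Without Atm-/- lymphoma 4, 1 fibroblast and endothelium marker was called lower in Atm-/- lymphomas against WT thymus. The part of these cells in the lower segment values was not tested, and shares within a library, such as that of a leading Trbv segment, do not use the total.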

How the data were processed

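PolyA RNA of 10 thymic lymphomas and 3 thymuses was sequenced as stranded paired reads, and the lymphoma methods are taken to hold for all 13 libraries. The authors converted base calls with bcl2fastq 1.8.3, aligned with STAR 2.4.0g1 to GRCm38, removed duplicates with Picard, kept uniquely mapped reads, and counted them per gene of Ensembl release 78. The values, of unit score, are counts that the authors normalized with DESeq2 1.6.3 and rounded before they were deposited. The authors' comparison columns exist and were not used here. The strand setting and the treatment of overlaps in the counting are not stated.

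Genes with a value of 10 or more in 3 or more libraries were kept, 15872 of 43629. The test was limma 3.58.1 (R 4.3.3), with log2(value + 1) of the 13 libraries modelled as 3 groups, with a mean trend and robust moderation, two-sided, and p was adjusted by Benjamini-Hochberg over all genes kept, separately in each of the 3 comparisons. Tables and figures used Python 3.11.15, pandas 2.3.3, numpy 2.4.6 and matplotlib 3.10.9. Alternatives were recomputed size factors (0.993 to 1.028), no filter, pseudocounts of 5 and 0.5, no fold threshold, only the compared groups in the fit, no robust moderation, V genes without pseudogenes, values at or under 3 set to 0, and leaving out each library in turn. Values per kilobase of exon were added after seeing the data. The fit and the measures were tested on simulated data. For Atm-/- lymphomas against WT thymus, limma recovered 50.5% of 200 genes with a simulated log2 change of 1.5, and 86% at 3. A gene that was not called can thus still differ.

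Depth could be estimated in 6 libraries only, and no intervals are given since whole reads are not recoverable. Named are all constant segments, the leading V and J segments (Trbj over 10), any Trbv at 20% or more, and the 3 highest and 3 lowest called segments per comparison. Of each list, the most abundant gene and some or all of the called genes per comparison are named. Results on some genes of the lists are withheld for evaluation and left out. Members and lists were chosen with earlier results of these data known. No paired analysis was possible because the labels link no lymphoma to a thymus.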

Additional observations from a re-analysis of the deposited data

Results flagged for a closer look

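Of 40 groups of 5 lymphomas that were looked at for a library far from the others, 13 had one, where chance gives about 1 in 20 groups. The 3 WT thymuses are too few for such a search and were not tested. In Atm-/- lymphomas these were Tcrg-C3 at 51.0 and Mgam at 251 in lymphoma 3, Trbd1 at 74.0 in lymphoma 1, Trbd2 at 352 in lymphoma 5 and Prss2 at 14.0 in lymphoma 2. In Rag2c/c p53-/- lymphomas they were the gamma constant total at 2799, Tcrg-C2 at 562 and Tcrg-C4 at 580 in lymphoma 3, Trbc2 at 37090, Prss2 at 635 and 2210010C04Rik at 1523 in lymphoma 2, a leading gamma V share of 79.0% in lymphoma 1, and Amph, a neighbour of the gamma locus, at 157 in lymphoma 4. Many of these measures overlap, since Tcrg-C2 and Tcrg-C4 enter the gamma constant total, so the 13 are not independent.

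Of the 53 segments tested, 5 differed between the lymphoma groups in their difference from WT thymus, by the limma contrast of Atm-/- with Rag2c/c p53-/- lymphomas, in which the shared WT thymuses cancel. The fitted differences (log2) were -4.45 for Trbv29, -3.89 for Trbd1, 3.25 for Tcrg-C2, 3.75 for Trgv2 and 5.65 for Trbv12-2. That of Trbv29 depends on the pseudocount, since the gene is listed at 0 in all 5 Atm-/- lymphomas. The report gives the libraries whose omission removes the calls on Trbd1, Tcrg-C2 and Trbv12-2. The causes were not tested.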

How the results depend on the processing

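Of 110 pairs of a named gene and a comparison, 76 kept direction and call under every alternative in which the gene was fitted, 26 lost a call under at least 1, 2 gained one and 6 changed sign. Over the settings that keep all libraries, segments called lower numbered 27 to 28 in Atm-/- and 33 to 37 in Rag2c/c p53-/- lymphomas against WT thymus. On leaving out 1 library the 28 in Atm-/- lymphomas ran from 19 (without each WT thymus) to 29 (without Atm-/- lymphoma 1).

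Between the lymphoma groups the 3 segments called higher became 1 without the filter and 1 with only the compared groups in the fit, where the 2 called lower became 1. On leaving out 1 library the number higher ran from 1 (without Atm-/- lymphoma 2) to 8 (without Rag2c/c p53-/- lymphoma 3), and the number lower from 1 (without Rag2c/c p53-/- lymphoma 3) to 4 (without Atm-/- lymphoma 3). Genes that passed the filter through the WT thymuses alone could not be fitted without any 1 of them. Against WT thymus the 35 called lower in Rag2c/c p53-/- lymphomas ran from 22 (without each WT thymus) to 37 (without Rag2c/c p53-/- lymphoma 3). Tcrg-C4 gained a call in Rag2c/c p53-/- lymphomas against WT thymus without Rag2c/c p53-/- lymphoma 3 (-3.48), and between the lymphoma groups without Atm-/- lymphoma 3 (3.73) or Rag2c/c p53-/- lymphoma 3 (3.95).

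Per kilobase of exon, chosen after seeing the data, WT thymus medians moved to 11.6% for the leading Trbv segment, 43.5% for the Trbc1 share and 49.3% for the leading gamma V segment, because segment lengths differ.

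Signs changed for log2 fold changes that were not called. In Atm-/- lymphomas against WT thymus, Trbc2 ran from -0.25 to 0.17, with 0.06 without lymphoma 1 and 0.06 without lymphoma 5, Tcrg-C2 from -0.81 to 0.10, with 0.00 without lymphoma 3, and Tcrg-C4 from 0.00 to 1.1. In Rag2c/c p53-/- lymphomas against WT thymus, Trbc2 ran from -0.56 to 0.20, with 0.10 without WT thymus 2, and Tcrg-C3 from -1.60 to 0.05. Between the lymphoma groups Trbc2 ran from -0.29 to 0.47, with -0.09 without Atm-/- lymphoma 2. The cause was not tested.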

Other observations

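Further genes near the loci belong to no comparison of segments. Ephb6, beside the beta locus, stood at 5675, 6162 and 5632 in WT thymuses 1 to 3, at 2440, 3448, 1861, 3599 and 3052 in Atm-/- lymphomas 1 to 5, and at 3744, 4485, 3638, 3114 and 2816 in Rag2c/c p53-/- lymphomas 1 to 5, all 10 below WT thymus. Its call in Atm-/- lymphomas (log2 fold change -1.06, adjusted p = 0.00143) was lost without Atm-/- lymphoma 3 (-0.91). Amph, beside the gamma locus, stood at 4, 0 and 2 in WT thymuses 1 to 3, at 91, 43, 8, 43 and 17 in Atm-/- lymphomas 1 to 5, and at 1, 0, 4, 157 and 5 in Rag2c/c p53-/- lymphomas 1 to 5.

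The WT thymuses come from another strain and an earlier series, and thymus of the lymphomas' strains was not analysed here, so strain, series and tissue go with the groups. Values are per gene and say nothing of alleles, of which segments were joined in 1 transcript, or of protein. Bulk libraries do not show how many clones a lymphoma holds. Low depth in WT thymus 2 and Rag2c/c p53-/- lymphoma 2 makes 1 read worth over 3 there, so a value at or near 0 in them can hide a low level.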
